A study of Homo sapiens with 2 samples.

Results

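The short arm of chromosome 17, 17p, held 1173 of the 114944 DNase I hotspots called in 2 human osteosarcoma cell lines, 586 in Saos-2 and 587 in U2OS. A hotspot was counted on the arm when it lay on chromosome 17 and ended before position 22700000 of the hg38 assembly, which leaves the centromere and 17q outside. Saos-2 and U2OS are established lines grown from bone tumours, and neither was treated. Each line was profiled with 1 DNase-seq library from isolated nuclei, with no normal bone cell beside them. The whole lists held 51556 hotspots (14.2 Mb) in Saos-2 and 63388 hotspots (17.8 Mb) in U2OS at a false discovery rate of 0.05. The depth of the reads is unknown from these lists. With no replicates there is no test between the lines, and every interval below is a 95% Wilson interval that covers counting error only. A hotspot list does not measure DNA copy number, so the number of copies of a region, the accessibility of each copy and the depth of a library cannot be told apart. Cultures of a line also come from 1 tumour each, so a difference between the lists is a difference between these 2 libraries.

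DNase I cuts DNA most readily where nucleosomes are displaced by bound proteins, so clusters of cuts mark active promoters, enhancers and insulators. The outer part of chromosome arm 17p is rich in genes. Nearer the centromere the arm carries a segment of bands p12 and p11.2 that is often gained or amplified in osteosarcoma, where MAP2K4, COPS3, PMP22, FLCN and other genes have been discussed as its content. Between these lie the cluster of skeletal muscle myosin genes and a stretch with few genes. For the check of cell type, 8 of 9 osteoblast genes had hotspots within 10 kb in both lines, with SPP1 (osteopontin) uncovered in both. The same held for 8 of 11 genes of blood, liver, epithelium, endothelium, nerve and muscle, with EPCAM covered in Saos-2 only, MYOD1 in U2OS only and ALB in neither. Coverage within 10 kb therefore did not separate the osteoblast list from the others and gives no check of the cell type.

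The promoters of 6 genes of the arm are shown because they span its classes of sites: a hotspot shared by the lines, or present in a single one of them. They are RefSeq sequences on GRCh38.p14, which shares its chromosome coordinates with hg38, from 250 bases before to 50 after the annotated start, 5′ to 3′ on the gene's strand. Capitals mark matches to any of the 10 motifs searched, on either strand. HS3ST3B1 (chr17:14300831-14301130, plus strand) and PFAS (chr17:8249039-8249338, plus strand) had a hotspot in Saos-2 only. DNAH9 (chr17:11598220-11598519, plus strand) and RNF227 (chr17:7916240-7916539, minus strand) had one in U2OS only. TOP3A (chr17:18314945-18315244, minus strand) and ZNF286A (chr17:15699502-15699801, plus strand) had one in both.
HS3ST3B1: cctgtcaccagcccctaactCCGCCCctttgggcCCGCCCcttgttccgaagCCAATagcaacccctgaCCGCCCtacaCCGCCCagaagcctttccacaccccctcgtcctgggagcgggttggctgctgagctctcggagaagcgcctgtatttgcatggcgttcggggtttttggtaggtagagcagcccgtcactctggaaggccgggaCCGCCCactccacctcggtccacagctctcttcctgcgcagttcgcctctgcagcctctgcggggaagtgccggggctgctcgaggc
PFAS: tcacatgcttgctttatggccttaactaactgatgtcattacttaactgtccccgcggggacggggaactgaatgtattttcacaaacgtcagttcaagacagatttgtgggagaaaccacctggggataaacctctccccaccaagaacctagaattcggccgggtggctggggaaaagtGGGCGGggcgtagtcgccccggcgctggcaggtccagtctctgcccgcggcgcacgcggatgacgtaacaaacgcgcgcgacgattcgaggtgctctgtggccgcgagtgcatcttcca
DNAH9: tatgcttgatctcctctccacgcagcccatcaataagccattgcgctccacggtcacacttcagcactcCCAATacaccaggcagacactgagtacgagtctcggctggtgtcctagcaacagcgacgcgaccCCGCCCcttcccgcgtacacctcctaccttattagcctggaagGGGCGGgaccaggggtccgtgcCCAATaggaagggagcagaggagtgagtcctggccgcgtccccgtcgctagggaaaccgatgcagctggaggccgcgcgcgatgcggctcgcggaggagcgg
RNF227: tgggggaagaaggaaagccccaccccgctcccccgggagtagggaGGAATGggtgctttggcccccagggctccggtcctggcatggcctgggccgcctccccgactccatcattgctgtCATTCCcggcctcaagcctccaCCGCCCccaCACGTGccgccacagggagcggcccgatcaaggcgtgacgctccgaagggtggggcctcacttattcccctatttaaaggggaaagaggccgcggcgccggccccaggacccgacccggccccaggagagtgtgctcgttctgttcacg
TOP3A: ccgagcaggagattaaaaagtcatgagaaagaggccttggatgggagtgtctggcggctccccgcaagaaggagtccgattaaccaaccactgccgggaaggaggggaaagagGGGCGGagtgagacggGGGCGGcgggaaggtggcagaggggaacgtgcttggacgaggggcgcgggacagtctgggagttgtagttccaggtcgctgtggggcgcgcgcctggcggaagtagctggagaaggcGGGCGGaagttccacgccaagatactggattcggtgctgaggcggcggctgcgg
ZNF286A: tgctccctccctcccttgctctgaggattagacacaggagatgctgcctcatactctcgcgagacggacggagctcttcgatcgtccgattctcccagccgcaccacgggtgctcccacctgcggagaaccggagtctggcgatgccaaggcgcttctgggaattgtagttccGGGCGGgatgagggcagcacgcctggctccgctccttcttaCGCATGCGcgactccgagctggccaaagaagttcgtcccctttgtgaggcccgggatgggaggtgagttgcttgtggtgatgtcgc

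HS3ST3B1 encodes a heparan sulfate sulfotransferase, and its promoter lay inside a Saos-2 hotspot with a −log10 significance of 13.9. The deposited −log10 value of a hotspot ranks it within its own list and is used here for description only. PFAS, an enzyme of purine synthesis, had its promoter inside a Saos-2 hotspot of 6.83. No U2OS hotspot touched either window. HS3ST3B1 had 1 U2OS hotspot, of 4.85, elsewhere inside the gene, and PFAS had 0 within 10 kb. DNAH9 encodes a heavy chain of the dynein of motile cilia, and its promoter lay inside a U2OS hotspot of 17.1. For RNF227, which encodes a RING finger protein, a U2OS hotspot of 5.54 covered 260 of the 300 bases. A Saos-2 hotspot lay 265 bp from that U2OS hotspot and outside the window, so Saos-2 was not without a site near RNF227. TOP3A encodes a DNA topoisomerase of the complex that resolves recombination intermediates, and its hotspots were among the most significant of the arm, at 29.1 in Saos-2 and 46.4 in U2OS. ZNF286A, a zinc finger gene, had 21.99 in Saos-2 and 61.7 in U2OS, the highest U2OS value on 17p.

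The promoter table matched 245 of the 332 protein-coding genes of the arm. Of these, 115 genes (46.9%) had a promoter hotspot in both lines, against 42.9% of all genes in the table. A hotspot in Saos-2 only was found for 14 genes (5.71%, against 4.37%) and in U2OS only for 14 genes (5.71%, against 8.7%). The remaining 102 genes had none in either line. The shares on 17p were thus near those of the genome, with the U2OS-only share the lower of the pair.

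The GC box, GGGCGG, was the most frequent of the motifs and marked all 6 sequences shown, with 5 matches in HS3ST3B1, 3 in TOP3A and 2 in DNAH9. It was present in 56.3% of all 22199 promoter windows and in 64.2% of the 346 windows of 17p. Among the 17p windows it was in 78.2% of the 142 with a hotspot in both lines and in 49.7% of the 171 with none. The CCAAT box, searched as CCAAT, was in 34.7% of all windows, and on 17p in 40.8% of windows open in both lines against 23.4% of those with none. The HS3ST3B1 sequence holds 1 CCAAT box and the DNAH9 sequence holds 2. Motifs of ETS factors (CCGGAAG) and of YY1 (ATGGCGG) differed in the same direction. The ETS motif was in 12.8% of all windows, 26.1% of 17p windows open in both lines and 7.02% of those with none. The YY1 motif was in 6.99%, 23.9% and 4.09% of the same sets. The NRF1 motif, GCATGCG, was in 4.63%, 8.45% and 3.51%, and the ZNF286A promoter holds 2 matches that overlap each other on opposite strands.

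The other 5 motifs were less frequent in 17p windows open in both lines than in those with none. The AP-1 motif TGANTCA was in 6.15% of all windows, 4.93% of 17p windows open in both lines and 8.19% of those with none. The shares for the RUNX motif TGTGGTT were 3.69%, 1.41% and 5.26%, and for the TEAD motif GGAATG 12.2%, 10.6% and 18.1%. The E-box CACGTG was in 8.34%, 9.86% and 11.1%, and the core AGGGGGC of the CTCF motif in 17.5%, 18.3% and 22.8%. RNF227 carried 2 TEAD matches and 1 E-box beside its GC box. Only 16 windows were open in Saos-2 alone and 17 in U2OS alone, of which 15 and 11 held a GC box and 9 and 6 the CTCF core. All searches covered both strands. Matching letters do not show a bound factor, and windows of a gene or of neighbouring genes share sequence and hotspots.

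The arm held nearly the same number of hotspots in both lines, 25.8 per Mb in Saos-2 and 25.9 in U2OS, although U2OS had the longer list overall. Saos-2 therefore had the larger share of its list there, 1.14% against 0.926%. After centring on the ratio over chromosomes 1 to 22 and X, whose log2 was 0.30, the arm's log2 ratio (U2OS over Saos-2) was −0.30 (−0.46 to −0.13). With gene-end hotspots alone it was −0.19 (−0.50 to 0.11), an interval that includes 0. Hotspots covered 156 kb of the arm in Saos-2 and 163 kb in U2OS, a centred log2 ratio of −0.26. The rest of chromosome 17, with 1708 Saos-2 and 2032 U2OS hotspots, had a ratio of −0.05 (−0.14 to 0.04). The intervals of 17p and of the rest of the chromosome met only between −0.14 and −0.13. Of the short arms taken for comparison, 6p (up to 59 Mb) had −0.37 (−0.46 to −0.27) with 1758 and 1677 hotspots. Arm 9p (up to 43 Mb) had 0.10 (−0.06 to 0.27) with 523 and 692. A relative surplus of Saos-2 sites was thus seen on 17p and 6p and not on 9p.

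The 3 segments of the arm all had ratios below 0. From 0 to 11 Mb, roughly band 17p13 with PER1 and GAS7, there were 309 Saos-2 and 320 U2OS hotspots and a ratio of −0.25 (−0.47 to −0.02). That interval included 0 at a false discovery rate of 0.01, with −0.20 (−0.45 to 0.05), and after merging, with −0.22 (−0.46 to 0.01). From 11 to 16 Mb, most of band p12 with MAP2K4, MYOCD and PMP22, there were 102 and 88, a ratio of −0.51 (−0.92 to −0.10). From 16 Mb to the arm end, band p11.2 with COPS3 and FLCN, there were 175 and 179, a ratio of −0.27 (−0.57 to 0.03). The 3 intervals overlap one another, so the order of the segments is not resolved. Counted in covered bases, the middle segment had −0.56 and the inner segment −0.09, since the 175 Saos-2 sites of the inner segment covered 45.5 kb and the 179 U2OS sites 53.7 kb.

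In 1 Mb windows the density of hotspots varied in parallel in both lines. Window 8 (7 to 8 Mb), which holds a dense cluster of genes, had the most Saos-2 hotspots, 52, with 53 in U2OS. Window 18 (17 to 18 Mb), which holds RAI1, SREBF1 and TOM1L2, had the most U2OS hotspots, 55, with 44 in Saos-2. Window 12 (11 to 12 Mb), which holds DNAH9 and few other genes, had 4 and 5. It was the only one of the 23 windows below the minimum of 10 hotspots, and the other 22 were compared. The centred log2 ratio was below 0 in 15 of these 22 windows (68.2%), against 46.9% of 2615 windows of the genome. Its median was −0.29 on the arm and 0.05 over the genome. The relative surplus of Saos-2 was therefore spread over most of the arm and not carried by 1 block.

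**Figure D1:**
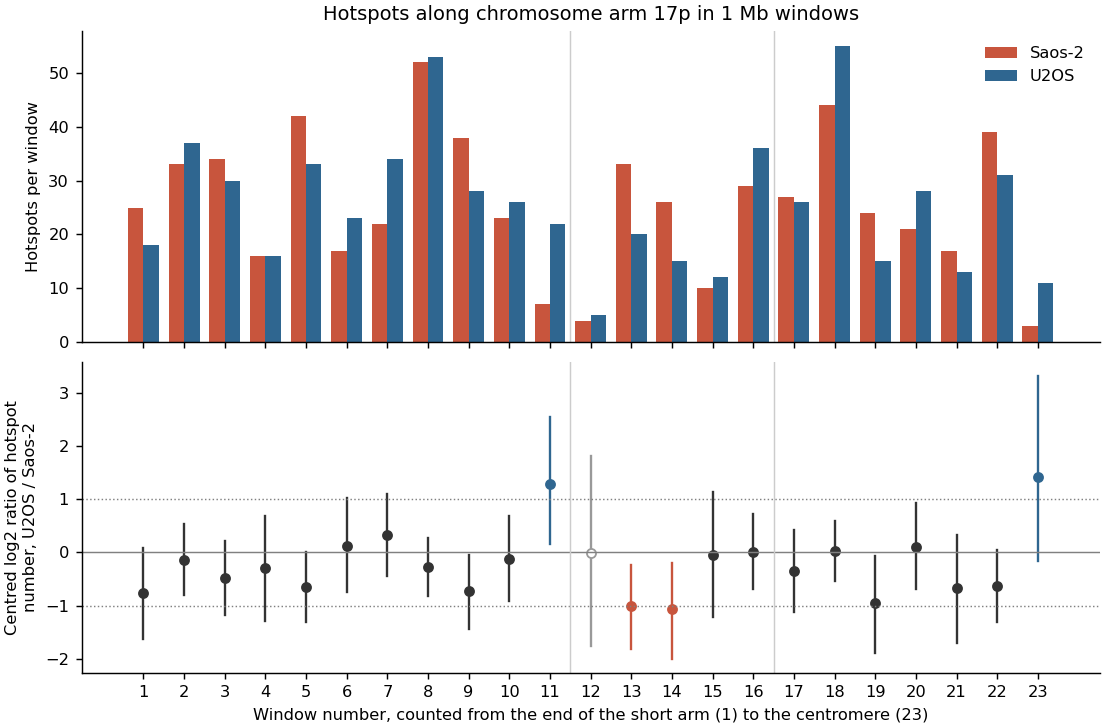
Hotspots per 1 Mb window along 17p (upper panel, bars, number of hotspots in each line) and the centred log2 ratio, U2OS over Saos-2 (lower panel, points with 95% counting intervals, dotted lines at 1 and −1, grey lines at the segment borders). Blue points mark windows 11 and 23, red points windows 13 and 14, and the open point window 12, which had too few hotspots to be compared.

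A window was called unbalanced when the centred log2 ratio was at least 1 in size. U2OS was the richer line in 2 of 22 windows, where 13.3% of the windows of the genome were called. Saos-2 was the richer line in 2 of 22, against 5.35% of the genome. With 22 windows these counts are close to the background. Intervals lay wholly below 0 in 4 windows and wholly above 0 in 1, against 8.45% and 10.9% of the windows of the genome.

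Window 11 (10 to 11 Mb) held 7 Saos-2 and 22 U2OS hotspots, a ratio of 1.29 (0.16 to 2.55), and 18 of the 22 U2OS hotspots had no Saos-2 overlap. Its 3 genes with the most U2OS coverage were GAS7, SCO1 and MYH13. GAS7, which encodes a growth arrest protein that acts on the actin cytoskeleton (chr17:9910606-10198606), had 1 Saos-2 hotspot and 13 U2OS hotspots within 10 kb. They covered 201 and 2916 bases, and 11 of the U2OS hotspots lay inside the gene. The strongest of them, at chr17:10086045-10086457, had a significance of 19.1 and lay 161 kb from the nearest Saos-2 hotspot, while the Saos-2 hotspot of GAS7 had 4.57. Of the genes named for the unbalanced windows, GAS7, which begins in window 10, had the widest difference in coverage. SCO1, a copper chaperone of cytochrome oxidase assembly, had 459 bases in Saos-2 and 763 in U2OS. MYH13, the myosin of extraocular muscle, had 139 and 629 bases, none of them inside the gene.

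The skeletal muscle myosin cluster lies in the same window and held 4 Saos-2 and 8 U2OS hotspots within 10 kb of its 6 genes. MYH13, MYH8 and MYH3 were covered in both lines, MYH2 in U2OS only, and MYH4 and MYH1 in neither. MYH2, the myosin of fast oxidative fibres, had a U2OS hotspot of 17.4 at chr17:10543464-10543795. MYH3, the embryonic myosin, had the opposite site, a Saos-2 hotspot of 14.9 at chr17:10657173-10657631 with no U2OS overlap. Strong sites unique to each line thus stood within the same gene cluster.

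Windows 13 and 14, next to each other in band p12, were richer in Saos-2. Window 13 (12 to 13 Mb) held 33 Saos-2 and 20 U2OS hotspots, a ratio of −1.01 (−1.81 to −0.23), with 20 Saos-2 and 7 U2OS hotspots not overlapped. Window 14 (13 to 14 Mb) held 26 and 15, a ratio of −1.07 (−1.99 to −0.19), with 19 and 8 not overlapped. Both sat at the threshold: no window was called richer in Saos-2 after hotspots less than 150 bp apart were merged, or after centring on chromosome 17. With windows shifted by 0.5 Mb, 1 of 22 was called richer in Saos-2 and 0 in U2OS, against 4.91% and 13.4% of the genome. Window 19 (18 to 19 Mb), with 24 and 15 hotspots, just missed the threshold at −0.96.

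All protein-coding genes that reach into window 13 had more covered bases in Saos-2, by very different amounts. MYOCD, the cardiac and smooth muscle co-activator myocardin (chr17:12665890-12768949), had the widest difference, with 6 Saos-2 hotspots covering 1611 bases against 2 in U2OS covering 409. The highest significance in MYOCD was 7.20 in Saos-2 and 5.63 in U2OS, so its Saos-2 sites were more numerous and of moderate strength. ZNF18, a zinc finger gene, had 1372 bases in Saos-2 and 946 in U2OS. MAP2K4, a kinase that activates JNK (chr17:12020877-12143828), had 1079 and 1021 bases from 4 and 5 hotspots, nearly the same in both. ARHGAP44, outside the naming rule and added after its values were seen, had 649 and 110. At the border to window 14, ELAC2, which trims the 3′ ends of tRNA, had 768 and 464 bases. In window 14, HS3ST3A1, a paralog of HS3ST3B1, went the other way with 1129 and 1585 bases.

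Window 14 also held the most significant Saos-2 hotspot of the arm with no U2OS overlap, at chr17:13204532-13205191, of 24.3. It lies in no annotated gene and 89.7 kb from the nearest U2OS hotspot. Paired hotspots in windows 13 and 14 did not follow the counts in the same way. The median log2 ratio of −log10 significance, U2OS over Saos-2, was −0.52 over the 13 pairs of window 13 and 1.05 over the 7 pairs of window 14. Across 18 windows with at least 5 pairs, counts and paired significance had a Spearman coefficient of 0.12, given as a description since all points share the same 2 libraries.

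**Figure D2:**
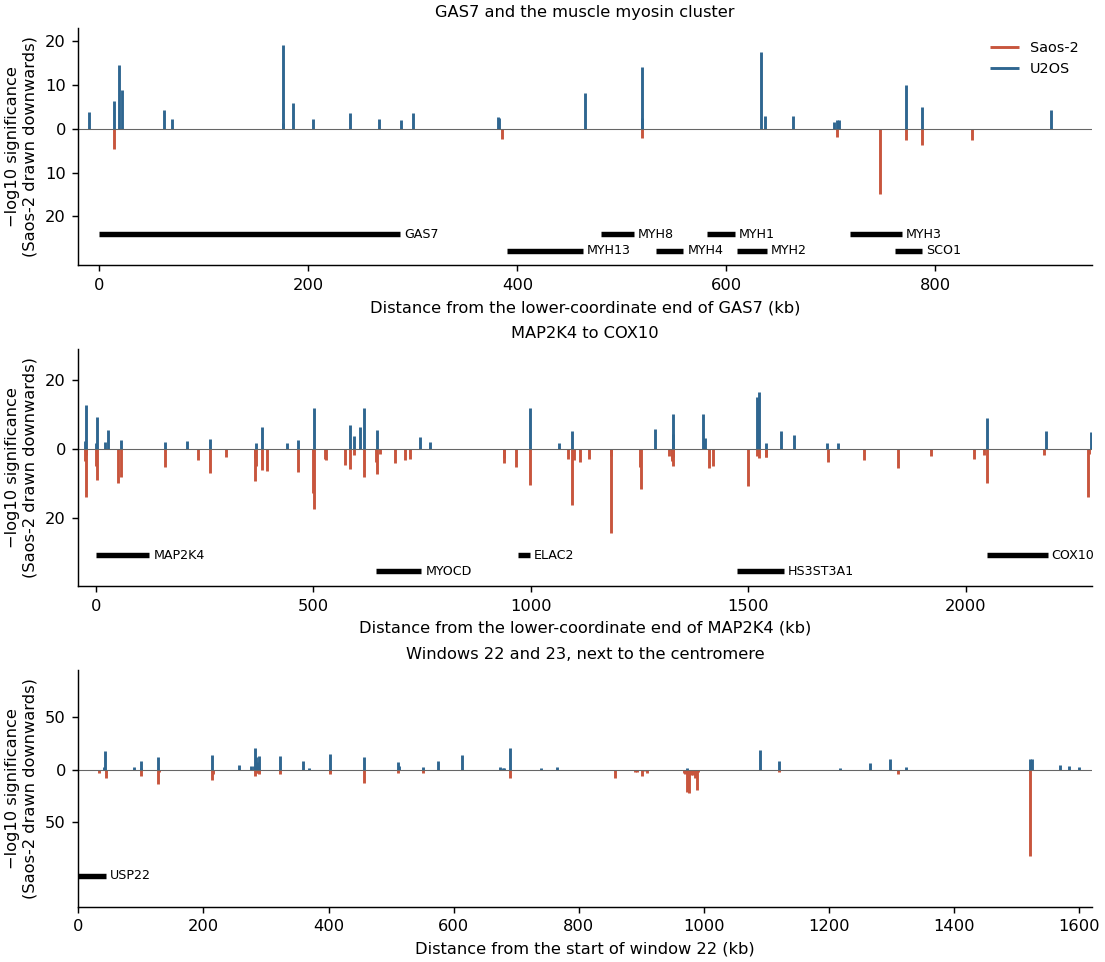
Position (horizontal axis, distance in kb) and −log10 significance (vertical axis, U2OS upwards in blue, Saos-2 downwards in red) of every hotspot in 3 stretches of 17p, with selected protein-coding genes as black bars. GAS7 carries 11 U2OS hotspots against 1 in Saos-2, MYOCD carries 6 Saos-2 hotspots against 2 in U2OS, and a Saos-2 hotspot of 81.6 stands near the end of the arm.

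Window 23, the last and shorter one next to the centromere (22 to 22.7 Mb), held 3 Saos-2 and 11 U2OS hotspots. Its ratio was 1.42, with an interval from −0.16 to 3.31 that includes 0, and it holds no protein-coding gene. Among its sites was a U2OS hotspot of 19.1 over the ubiquitin pseudogene UBBP4 (chr17:22090334-22090901) without Saos-2 overlap. It also held the most significant Saos-2 hotspot of the arm, of 81.6 at chr17:22521268-22521602, against 10.5 in U2OS. A U2OS hotspot of 10.3 stood over the annotated gene MTRNR2L1 at chr17:22524329-22524568. The nearest hotspots beyond the border of the arm were a U2OS hotspot at chr17:22703368-22703591 (4.75) and a Saos-2 hotspot at chr17:23975198-23975363 (1.88). The last hotspots inside it were at chr17:22601003-22601171 (3.17) in U2OS and the site of 81.6 in Saos-2. Sequence next to the centromere is repetitive, and how reads that map to several places were treated is not given in the sources used here, so the values of window 23 are uncertain.

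In Saos-2, 316 of 586 hotspots of the arm (53.9%, 49.9 to 57.9) shared at least 1 bp with a U2OS hotspot. The other 270 did not, and over the genome 41.9% of Saos-2 hotspots did not. In U2OS, 311 of 587 (53.0%, 48.9 to 57.0) overlapped a Saos-2 hotspot and 276 did not, against 53.1% not overlapped over the genome. For Saos-2 the overlap on 17p was below that of the genome (58.1%) and of the rest of chromosome 17 (62.5%, 60.2 to 64.8). For U2OS it was above that of the genome (46.9%) and close to the rest of the chromosome (52.1%). The numbers of overlapped hotspots were nearly equal in the lines, 316 and 311 on the arm and 29951 and 29718 over the genome. The shares therefore follow the number of hotspots in each line and are not independent of the ratio of counts. The middle segment had the lowest overlap values, 40.2% (31.2 to 49.9) in Saos-2 and 47.7% (37.6 to 58.0) in U2OS. The outer segment had 55.7% and 54.1% and the inner one 58.9% and 53.6%. For U2OS the interval of the middle segment includes both other values. Over 1 kb from the ends of protein-coding genes, U2OS had 43.3%, 46.2% and 46.0% from the outer to the inner segment. Saos-2 had 47.3%, 37.6% (28.5 to 47.8) and 48.6% (40.4 to 56.8) there. The middle value was the lowest in Saos-2 only. Its interval includes the outer value and overlaps the inner interval, so the difference is not resolved. Few of the unmatched hotspots were near misses, on the arm as in the genome. A hotspot of the other line lay within 500 bp for 23 of 270 in Saos-2 (8.52%, genome 8.14%) and 16 of 276 in U2OS (5.80%, genome 5.89%). It lay over 50 kb away for 35 (12.96%, genome 13.4%) and 53 (19.2%, genome 28.1%). On the rest of chromosome 17 these shares were 7.66% in Saos-2 and 9.34% (7.67 to 11.3) in U2OS. Isolated U2OS sites were thus less frequent on the arm than over the genome, and more frequent than on the rest of the chromosome.

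Overlap rose with significance. The 17p hotspots of each line were divided into 10 classes of nearly equal size by −log10 value. In the lowest class, 20 of 59 in Saos-2 (33.9%, 23.1 to 46.6) and 13 of 59 in U2OS (22.03%, 13.4 to 34.1) were overlapped. In the highest class, 51 of 58 (87.9%, 77.1 to 94.0) and 50 of 58 (86.2%, 75.1 to 92.8) were. Overlapped hotspots were also wider, the median being 288.5 bp (Saos-2) and 310 bp (U2OS) against 196 and 190 bp for the others, and a wider hotspot has more bases with which to overlap. The median −log10 value was 5.65 and 6.51 for overlapped hotspots and 2.80 and 2.95 for the others. Line-specific sites of the arm were thus mostly narrow and weak, and their number depends on the threshold of the lists.

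**Figure D3:**
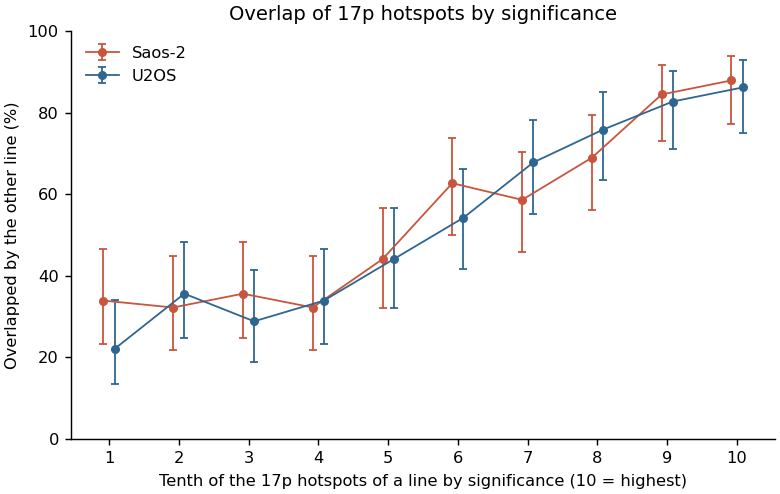
Percent of 17p hotspots overlapped by the other line (vertical axis) in 10 classes of nearly equal size, of each line's 17p hotspots ordered by −log10 significance (horizontal axis), with 95% Wilson intervals as bars. The share climbs from 33.9% to 87.9% in Saos-2 and from 22.03% to 86.2% in U2OS.

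Some line-specific sites were strong nonetheless. Beside the site in window 14, the Saos-2 list held unmatched hotspots of 22.04 and 19.6 at chr17:21976280-21976585 and chr17:21988538-21988854, in no gene. Both lie in window 22, next to window 23. How multiply mapped reads were treated is unknown for them too, so their values are uncertain. It also held 14.9 in MYH3 and 14.8 at chr17:4412049-4412370, only 0.884 kb from a U2OS hotspot. In U2OS the strongest was 24.4 at chr17:19288487-19288908 inside EPN2, an adaptor of clathrin endocytosis. It was followed by 19.2 at chr17:17191248-17191801 inside MPRIP, which binds myosin phosphatase. The UBBP4 and GAS7 sites followed at 19.1 each, and a site at chr17:7060204-7060975, in no gene, at 18.04. EPN2 and MPRIP also held sites shared by both lines.

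Hotspots at gene ends, at most 1 kb from the start or the last base of a protein-coding gene, made up 171 (29.2%, 25.6 to 33.0) of the 17p hotspots in Saos-2. In U2OS they made up 167 (28.4%, 24.9 to 32.2). Both shares were above those of the genome, 20.2% and 18.4%. The rest of chromosome 17 lay between, with 25.1% (23.1 to 27.2) in Saos-2 and 24.5% (22.6 to 26.4) in U2OS. These intervals overlap those of the arm. The share was highest in the gene-rich outer segment, 40.5% in Saos-2 and 36.6% in U2OS, and lowest in the middle segment, 8.82% and 11.4%. Gene-end sites overlapped between the lines more often, 74.3% in Saos-2 and 73.7% in U2OS, than the others, 45.5% and 44.8%. The genome showed the same contrast, with 79.9% and 70.3% at gene ends and 52.5% and 41.6% elsewhere. In the inner segment 36 of 37 gene-end hotspots of Saos-2 (97.3%) and 32 of 40 of U2OS (80%) were overlapped. On an annotated start itself stood 95 overlapped hotspots of Saos-2 (30.1%) but only 7 unmatched ones (2.59%). The same counts in U2OS were 97 (31.2%) and 18 (6.52%). Few of the unmatched sites of the arm thus stood on an annotated start.

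Hotspots of a line also stood in runs, defined as consecutive hotspots, ordered by midpoint, with no midpoint of the other line between them. The longest Saos-2 run had 12 hotspots within 15.2 kb (chr17:21975843-21991029), in no gene, none overlapped, with values up to 22.04. Just before it stood a run of 9 (chr17:21858224-21973714), whose last hotspot was overlapped by a U2OS hotspot of 1.74. Both runs lie in window 22, next to window 23, and the unknown handling of multiply mapped reads limits them too. A run of 10 over 454 kb (chr17:20267227-20721478) began in SPECC1, a cytospin-family gene of band p11.2, reached only 5.48 and had 1 overlapped hotspot. The longest U2OS run had 14 hotspots over 364 kb (chr17:9928914-10292865) in and beyond GAS7. A run of 9 U2OS hotspots over 380 kb (chr17:14775964-15155862), in no protein-coding gene, lay between HS3ST3B1 and PMP22 and reached 6.74. The 12-hotspot run of Saos-2 was thus denser than these U2OS runs. The Saos-2 run over 454 kb spanned more than either of them, so spacing did not separate the lines.

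The arm also had long stretches with no hotspot in a line. Saos-2 had none over 1190 kb (chr17:10745595-11935908), a stretch with TMEM238L, PIRT, SHISA6 and DNAH9, where U2OS had 4, including the DNAH9 promoter at 17.1. A gap of 545 kb in Saos-2 (chr17:3049166-3594484) spanned the olfactory receptor cluster, where U2OS had 3. U2OS had none over 583 kb (chr17:10821333-11404423), where Saos-2 also had 0, nor over 534 kb (chr17:20267392-20801686), where Saos-2 had 9. The longest gap of the arm was thus shared in part by both lines.

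Hotspots matched 1 to 1 between the lines formed 292 pairs on the arm. The −log10 value was higher in U2OS in 182 (62.3%) and in Saos-2 in 110, with a median log2 ratio of 0.32. Over 27672 pairs of the genome, 62.7% were higher in U2OS and the median was 0.38. The Spearman coefficient over the pairs was 0.48, as a description. Of the pairs, 92 stood over a gene start, with medians of 7.41 in Saos-2 and 10.1 in U2OS. The other 200 had 4.97 and 5.27. By segment the median log2 ratio was 0.29, 0.16 (40 pairs) and 0.62 (90 pairs) from the outer to the inner one. The share of pairs higher in U2OS was 58.6%, 57.5% and 71.1% in the same order. In window 22 (21 to 22 Mb), 11 of 13 pairs were higher in U2OS, with a median log2 ratio of 1.20. In the inner segment the lines thus had nearly the same number of sites. Most paired sites were the more significant in U2OS there, as over the whole genome.

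**Figure D4:**
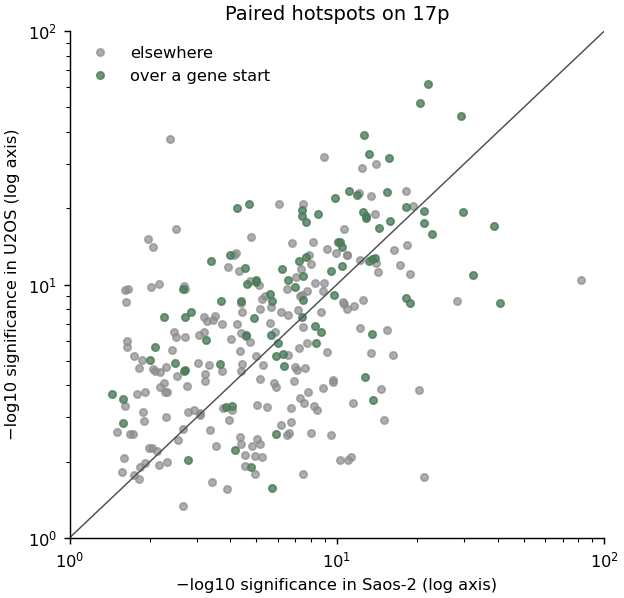
The −log10 significance of the 292 paired hotspots of 17p in Saos-2 (horizontal, log axis) and U2OS (vertical, log axis), with pairs over a gene start in green, others in grey and the line of equal values in black. Points lie above the line in 182 pairs, and gene-start pairs reach 61.7 in U2OS.

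The 5 pairs that ranked highest by the lower of their −log10 values all stood at promoters. After TOP3A, whose hotspot also covers the start of SMCR8, and ZNF286A came the start of TOM1L2 and DRC3 at chr17:17972329-17972988, with 20.5 in Saos-2 and 52.2 in U2OS. MED11, a Mediator subunit, had 21.1 and 19.5, and LIAT1 had 29.7 and 19.3. The most uneven pairs, chosen after their values were seen, were not at promoters of this kind. A site in no gene, nearest to the start of MED9, had 2.37 in Saos-2 (chr17:17446198-17446451) and 37.6 in U2OS (chr17:17445913-17446603). In HS3ST3A1 a site had 1.962 in Saos-2 (chr17:13541108-13541287) and 15.1 in U2OS. In the other direction, a site at chr17:21973451-21973714, beside the dense Saos-2 run, had 21.2 in Saos-2 and 1.74 in U2OS. The limit given for that run holds for this site too. A site inside STX8, a syntaxin of endosomes, had 11.3 (chr17:9408331-9408761) and 2.09.

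Of the 332 protein-coding genes of 17p, 250 (75.3%) had hotspots within 10 kb in both lines, against 71% of the genome. Only Saos-2 covered 11 genes (3.31%, against 4.21%), only U2OS covered 33 (9.94%, against 10.9%), and neither covered 38 (11.4%, against 13.8%). All 4 shares were near the background. U2OS covered more bases in 160 genes and Saos-2 in 134, and the median per gene was 473 bases in Saos-2 and 470 in U2OS. Over the genome U2OS was higher in 10539 genes and Saos-2 in 6555, and the medians were 427 bases in Saos-2 and 536 in U2OS. By these medians the arm lacked the U2OS surplus of the genome. By segment, U2OS was higher in 109 genes and Saos-2 in 104 in the outer one, and in 9 and 12 in the middle one. In the inner one U2OS was higher in 42 genes and Saos-2 in 18, with a median difference of 136 bases.

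Genes covered in a single line were few and mostly weakly covered. CTC1, of the telomere complex CST, and PFAS, its neighbour, shared the same 5 Saos-2 hotspots and 822 bases, the most of any gene covered in Saos-2 only. TRPV1, the capsaicin receptor, had 567 bases, TBC1D28 417 and SCIMP, an adaptor of immune cells, 280. In U2OS the most were 594 bases for the olfactory receptor OR3A2, 538 for WSCD1 and 498 for TEKT1, a protein of ciliary microtubules. MYH2 had 495 and LOC124900389 had 446. Of the 9 olfactory receptor genes on the list, 7 were covered in neither line, with OR3A1 and OR3A2 covered in U2OS only. Of the receptor genes of the arm outside the list, OR1R1 shared a U2OS hotspot with OR3A2 (383 bases) and OR1D5 had none. Most of this list of genes of sensory neurons was thus outside any hotspot in both tumour lines.

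The 24 genes discussed for the p12 and p11.2 amplicon were covered in both lines in 22 cases. ULK2, an autophagy kinase, was covered in U2OS only and RASD1, a small GTPase, in neither. U2OS had more covered bases in 17 of them and Saos-2 in 6, with medians of 865 and 661.5 bases. Over all protein-coding genes the same counts were 10539 and 6555 in the genome, and 42 and 18 in the inner segment of the arm. Counting a hotspot shared by neighbouring genes a single time, 83 U2OS and 79 Saos-2 hotspots lay within 10 kb of the list. The median difference was 209.5 bases, against 0 over all protein-coding genes of the arm and 32 over the genome. The list was chosen with earlier results of these data known, and several of its genes share hotspots.

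The wider differences within this list were at SREBF1, TOM1L2, PMP22 and FLCN. SREBF1, the regulator of sterol and fatty acid synthesis, had 231 bases from 2 hotspots in Saos-2 and 1821 from 7 in U2OS. TOM1L2, its neighbour, had 2885 from 12 and 4630 from 16. PMP22, a protein of peripheral myelin, had 146 bases from 1 hotspot in Saos-2 and 1002 from 5 in U2OS. FLCN, the folliculin tumour suppressor, had 139 and 659 bases. These 4 genes leaned to U2OS, whereas MYOCD, described above, leaned to Saos-2. The highest U2OS values within 10 kb were modest at SREBF1 (6.33), PMP22 (4.90) and FLCN (4.23), and high at TOM1L2 (52.2). In Saos-2 they were 2.42, 2.27, 2.11 and 20.5 in the same order.

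COPS3 and MAPK7, both proposed as drivers of the amplicon, differed more in significance than in coverage. COPS3, a subunit of the COP9 signalosome, had 962 bases in Saos-2 and 1388 in U2OS, with highest values of 7.20 and 39.9. The U2OS hotspot at its start, chr17:17280602-17281523, spanned 2 separate Saos-2 hotspots of 7.20 and 6.25. MAPK7, the kinase ERK5, had 920 and 1223 bases, with 14.5 and 35.3, and there too a U2OS hotspot spanned several Saos-2 ones. NCOR1, a nuclear receptor co-repressor, had 632 and 864 bases, and USP22, a histone deubiquitinase of SAGA, 679 and 866. RAI1, the gene of Smith-Magenis syndrome, had 1370 and 1810, MPRIP 1635 and 2109, SPECC1 1466 and 1966, and AKAP10, an anchor of protein kinase A, 419 and 737. UBB, a polyubiquitin gene, had 466 and 563. Close to equal were COX10 (644 and 667), needed for the haem of cytochrome oxidase, SHMT1 (395 and 410), an enzyme of folate metabolism, and TOP3A (545 and 509). EPN2 had 1505 and 1356, and TVP23C 568 and 323.

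Among 11 cancer and growth genes of band p13, 9 were covered in both lines and 2 in neither, HIC1, a transcriptional repressor, and AURKB, a mitotic kinase. Coverage was higher in U2OS in 5 and in Saos-2 in 4, so the list had no common direction. PER1, a repressor of the circadian clock, leaned to Saos-2 with 1360 against 652 bases, and YWHAE, a 14-3-3 protein, had 846 and 638. USP6, a deubiquitinase, had 462 and 355, and CRK, a signalling adaptor, 1037 and 953. NTN1, the guidance cue netrin, leaned to U2OS with 505 and 1096 bases. GPS2, a co-repressor subunit, had 814 and 1249, PRPF8, a core of the spliceosome, 547 and 751, and XAF1, an apoptosis factor, 824 and 946. RPA1, of single-stranded DNA binding, had 402 and 427 and was close to equal. These bases include the flanks of 10 kb. USP6 and XAF1 held 0 hotspots inside the gene in both lines. GPS2 held 0 in Saos-2 and 1, of 1.68, in U2OS, and PER1 held 1 in Saos-2 and 0 in U2OS. The other covered genes named here held hotspots inside the gene in both lines.

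All 5 arachidonate lipoxygenase genes, whose enzymes oxidise arachidonic acid, had more covered bases in Saos-2, from 13 distinct hotspots against 4. Most of this came from ALOXE3, the epidermal lipoxygenase, with 1245 bases from 8 hotspots in Saos-2 and 168 from 1 in U2OS. The ALOXE3 flank also holds tRNA genes and the end of HES7, a repressor of the segmentation clock, and 5 of the Saos-2 hotspots lay on tRNA genes (chr17:8119133-8121012). The shared site there, on a leucine tRNA gene, had 4.33 in Saos-2 and 2.49 in U2OS. The 5 genes are close neighbours in part, so they are not 5 separate observations. ALOX15, ALOX15B and ALOX12B held 0 hotspots inside the gene in both lines. ALOXE3 held 1 in Saos-2 and 0 in U2OS, and ALOX12 held 1 in each line.

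**Figure D5:**
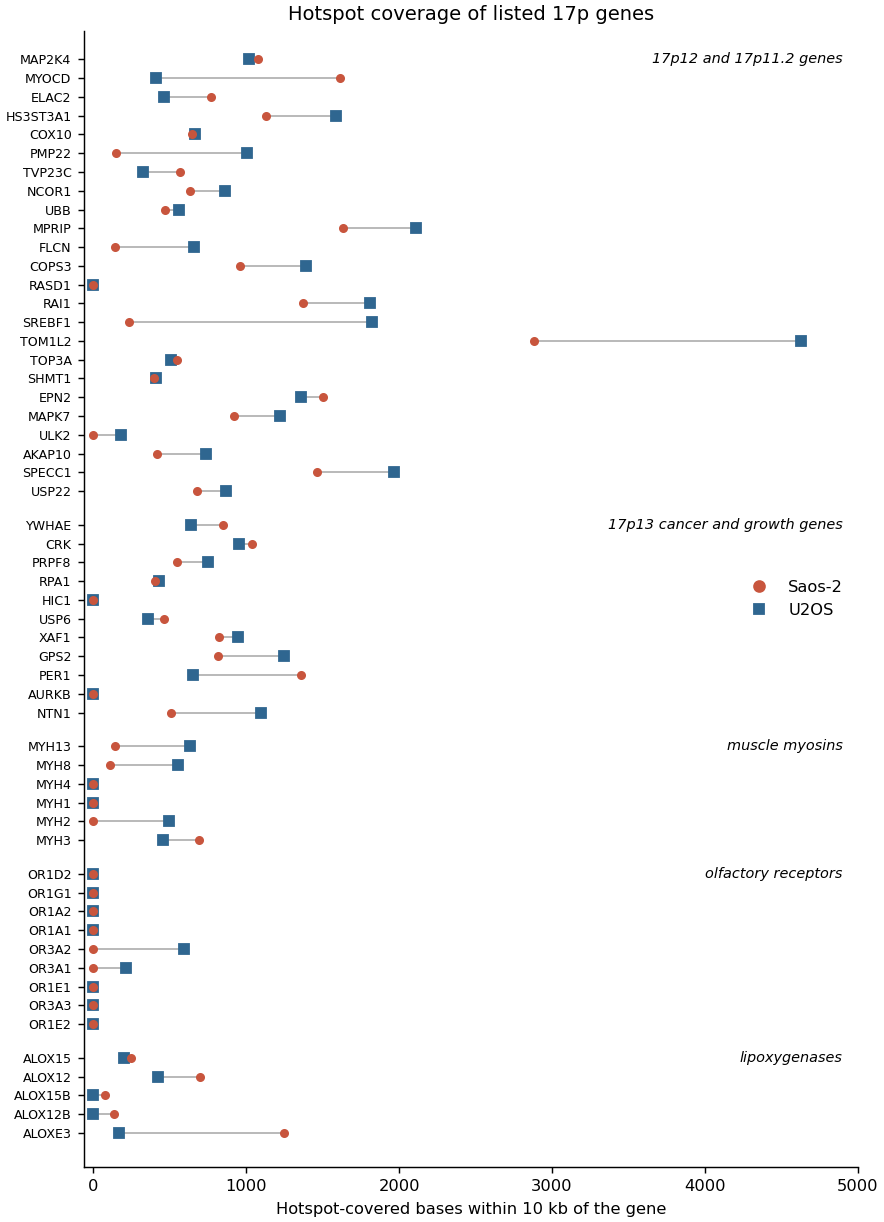
Hotspot-covered bases within 10 kb (horizontal axis) for the listed genes of 17p, in arm order within each list, with Saos-2 as red circles and U2OS as blue squares joined by a line. SREBF1, PMP22 and TOM1L2 lie to the U2OS side, MYOCD, PER1 and ALOXE3 to the Saos-2 side, and most olfactory receptors at 0 in both.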

How the data were processed

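Nuclei of untreated Saos-2 and U2OS cells were digested with DNase I and sequenced, with 1 library per line, per the labels' protocols. Reads were trimmed with Trimmomatic 0.38 and aligned with BWA 0.7.15 to hg38, per the submitters' processing notes. A false discovery rate of 0.05 stands in the names of the deposited files; the hotspot caller, the read depth and the handling of duplicate and multiply mapped reads are not given in the sources used here. The authors called hotspots in each library separately and deposited a −log10 significance for each, taken here as that of the false discovery rate because its lowest value is that of 0.05. The deposited score is 10 times that −log10 value within rounding and served only as a check.

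An overlap was any shared base (1 bp) between hotspots as deposited. Ratios of counts per region are log2 of U2OS over Saos-2, each plus a pseudocount of 0.5, minus the ratio over chromosomes 1 to 22 and X. Windows of 1 Mb held a hotspot by its midpoint, needed at least 10 hotspots in all, and were called unbalanced at a log2 ratio of at least 1 in size. Shares have Wilson 95% intervals, which cover counting error only; neighbouring hotspots are not independent. Gene spans came from RefSeq on GRCh38.p14 (58961 genes, of which 19866 protein-coding), after 718 entries, 42 of them on chromosome 17, whose positions were out of chromosome order were left out. Covered bases per gene were counted within 10 kb of its span. The RefSeq promoter table (15812 protein-coding genes used) matched 245 of 332 protein-coding genes of the arm, with 346 starts. The 10 motifs were searched as exact letters on both strands.

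Genes named were those of 5 lists (amplicon, cancer and growth, myosin, olfactory receptor, lipoxygenase), the 3 genes per unbalanced window with the most covered bases in the richer line, and the 5 genes per line covered in that line only. An item of these lists is not reported here. Sites named were the 5 most significant unmatched hotspots per line, the 5 strongest pairs, and the longest runs and gaps. The members and lists were chosen with earlier results of these data known. Overlap and window counting was tested on simulated data. Python 3.11.15, pandas 2.3.3 and numpy 2.4.6 were used. Alternatives covered the significance threshold, list length, merging, overlap rule, window size and phase, centring, gene-end distance and gene flank.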

Additional observations from a re-analysis of the deposited data

How the results depend on the processing

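No paired analysis was possible because there was 1 library per line, and no replicate could be left out. Of 108 alternative values, 83 moved by less than their counting error or by less than 1.5 times for counts, and 25 moved by more. The cause was not tested. A reversal was possible only for centred ratios whose main interval excluded 0, and 0 reversed. Counts and shares could not reverse, so that number says nothing about them. With the top 50% of each list, 288 Saos-2 and 272 U2OS hotspots lay on 17p, and U2OS overlap was 57.7%. Overlap was 43.3% in Saos-2 and 43.3% in U2OS when 50% of both hotspots had to be shared. With U2OS reduced to the Saos-2 list length it was 48.6% and 58.4%, and 17 genes were covered in Saos-2 only. Windows richer in Saos-2 numbered 1 of 22 when shifted by 0.5 Mb (genome 4.91%), 6 of 39 at 0.5 Mb (7.68%) and 1 of 12 at 2 Mb (3.57%). They numbered 0 of 22 after merging (genome 4.79%) and 0 of 22 when centred on chromosome 17 (3.79%). Those richer in U2OS numbered 0 of 22 when shifted (genome 13.4%), 1 of 12 at 2 Mb (11.4%) and 1 of 21 with at least 20 hotspots (7.98%). Without hotspots beyond 21 Mb, an alternative chosen after seeing the data, they numbered 1 of 20 (genome 13.3%). The gene-end share within 2.5 kb was 35.7% (Saos-2) and 35.8% (U2OS), and with all annotated genes 35.3% and 36.5%. Within 500 bp it was 24.2% in U2OS. Genes covered in Saos-2 only numbered 19 within 1 kb and 5 within 50 kb, and in U2OS only 15 within 50 kb. Genome shares were not computed for these alternative gene counts. The unknown read depth limits every comparison of number and significance between the lines.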
